A study of Homo sapiens with 6 samples.

Results

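The cyclins, cyclin-dependent kinases (CDKs), CDK inhibitors, CDC25 phosphatases, inhibitory kinases, pocket proteins and E2F factors were examined as one group of 55 genes, chosen by name as members of the cell cycle kinase network and its E2F-RB branch. All 55 were found among the 58884 gene IDs of the tables, each under 1 ID, and 54 had enough reads to be tested. The cells were HCT116, an established human colorectal cancer line, 48 h after transfection with a SMARTpool of siRNAs against Matrin3 (siMatrin3) or with an AllStars negative control siRNA (siCTRL), with 3 libraries in each group and no other treatment or allele that separates them. Matrin3 is a nuclear matrix protein that binds RNA. The study followed its loss to ask which transcripts depend on it, and a single pool of siRNAs and a single cell line limit these libraries as a model.

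Cyclins are the regulatory subunits of CDKs, and their rise and destruction turn the kinases on and off through the cell cycle. D and E cyclins with CDK4, CDK6 and CDK2 phosphorylate RB1 and its relatives, which then release E2F factors to transcribe the genes of DNA synthesis. INK4 and Cip/Kip inhibitors hold the kinases back, while CDC25 phosphatases remove the inhibitory phosphates that WEE1 and PKMYT1 add. A second set of cyclins and CDKs acts in transcription, on RNA polymerase II or in the Mediator complex, and colorectal cancer cells are known for an active cyclin D and E2F axis.

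The E2F motif is a sequence feature that the choice of genes did not use. RefSeq promoter windows (GRCh38.p14, 250 bases before to 50 after a start) existed for 46 of the 55 genes, 70 windows in all. The motif was searched as TTTCCCGC, TTTCGCGC, TTTGCCGC or TTTGGCGC on both strands, where a match on 1 strand can overlap a match on the other. It was present in 12.9% of the windows of these genes and in 3.31% of all 35116 windows. The 8 genes with a match were CDC25A, CDK1, CDK10, CDK19, E2F1, E2F2, E2F3 and RBL1. Of these windows 3 are shown, because CDC25A and E2F3 were lower in siMatrin3 while E2F1 was not past the threshold, with the motif in capitals. CDK1, CDK10, CDK19, E2F2 and RBL1 were not past the threshold either. Windows of CDK6, CCNE1 and CDKN1B, which were also lower, held no match, nor did those of CCNC, CDK9 and CDC25B, which were higher. The remaining lower genes, CCNE2 and E2F5, had no window and were not searched. The windows shown were thus picked by outcome. They lie at chr3:48188368-48188667 (minus strand), chr6:20401629-20401928 (plus strand) and chr20:33686336-33686635 (minus strand).
CDC25A: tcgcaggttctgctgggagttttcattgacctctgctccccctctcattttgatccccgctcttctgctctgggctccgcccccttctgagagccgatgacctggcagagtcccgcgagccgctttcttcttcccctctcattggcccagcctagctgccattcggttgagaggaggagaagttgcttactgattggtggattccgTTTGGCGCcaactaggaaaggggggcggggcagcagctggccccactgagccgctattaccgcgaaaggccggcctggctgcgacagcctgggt
E2F3: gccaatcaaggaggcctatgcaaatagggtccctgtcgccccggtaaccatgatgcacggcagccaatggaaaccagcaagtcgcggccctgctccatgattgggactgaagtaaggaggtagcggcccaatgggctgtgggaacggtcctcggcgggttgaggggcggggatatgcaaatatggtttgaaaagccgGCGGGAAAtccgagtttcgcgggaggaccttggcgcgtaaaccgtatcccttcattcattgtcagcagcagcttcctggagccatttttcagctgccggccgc
E2F1: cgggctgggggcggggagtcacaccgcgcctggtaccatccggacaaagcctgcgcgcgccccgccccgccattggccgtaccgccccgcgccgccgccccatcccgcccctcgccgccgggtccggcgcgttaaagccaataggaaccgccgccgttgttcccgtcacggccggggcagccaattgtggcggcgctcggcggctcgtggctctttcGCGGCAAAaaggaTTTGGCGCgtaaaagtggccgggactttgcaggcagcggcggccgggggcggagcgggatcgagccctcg
In CDC25A the match began 44 bases before the start, and in E2F3 it began 53 bases before the start, on the opposite strand. E2F1 carried 2 matches, 33 and 20 bases before the start. The cell cycle homology region TTTGAA was in 15.7% of the windows of these genes against 15.2% of all windows, and the CCAAT box in 42.9% against 34.6%, both strands searched.

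The targeted gene was read first. MATR3 (ENSG00000015479) had 72.4, 67.9 and 71.4 CPM (counts scaled to TMM-adjusted library totals) in siMatrin3, against 363, 343 and 330.2 in siCTRL. It fell by 2.29 ± 0.06 on the log2 scale (SE, edgeR adjusted p = 7.58e-11), to 20.4% of the siCTRL mean, and every siMatrin3 library lay below every siCTRL library. Total counts ranged from 4556658 to 8400412 per library. Among colon epithelial markers, EPCAM, CDH1, KRT8, KRT18, KRT19 and CDX2 were present, and 2 of the 6 tested, EPCAM and KRT19, were higher in siMatrin3, while VIL1 and LGALS4 were near 0. The summed level of these 8 markers was 1158 to 1169 TPM (RSEM's level per length within a library) in siMatrin3 and 1077 to 1147 TPM in siCTRL. Fibroblast markers summed to 6.56 to 7.06 TPM in siMatrin3 and 6.85 to 9.18 TPM in siCTRL, with COL3A1, COL1A2, DCN and LUM at 0 everywhere, and blood markers to 0.11 to 0.85 TPM in siMatrin3 and 0 to 1 TPM in siCTRL. The part that epithelial marker levels play in the other results was not tested.

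Most genes of the network did not pass the test, and a few of its G1 and E2F members fell. Of the 54 tested genes, 3 were higher and 7 lower in siMatrin3 by edgeR's quasi-likelihood test (two-sided, Benjamini-Hochberg adjusted p under 0.05 over 14334 genes), and 44 did not pass. Over all 14334 genes, 814 (5.68%) rose and 743 (5.18%) fell, so the share of higher genes here was close to that background and the share of lower genes above it. CCNC, CDK9 and CDC25B rose, and CDK6, CCNE2, E2F5, CDKN1B, CCNE1, E2F3 and CDC25A fell. In bulk RNA, fewer cells in a phase of the cycle and less RNA per cell cannot be told apart. By staining and flow cytometry, the study reported no cell cycle change in HCT116 after Matrin3 knockdown. How that measurement relates to these libraries was not tested. The median log2 fold change was -0.04 over the 54 genes and 0.00 over all genes tested. Ranges of CPM did not overlap between the groups for 10 genes that were higher and 15 that were lower, where 15.0% and 14.7% of all genes tested separated in each direction.

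**Figure D1:**
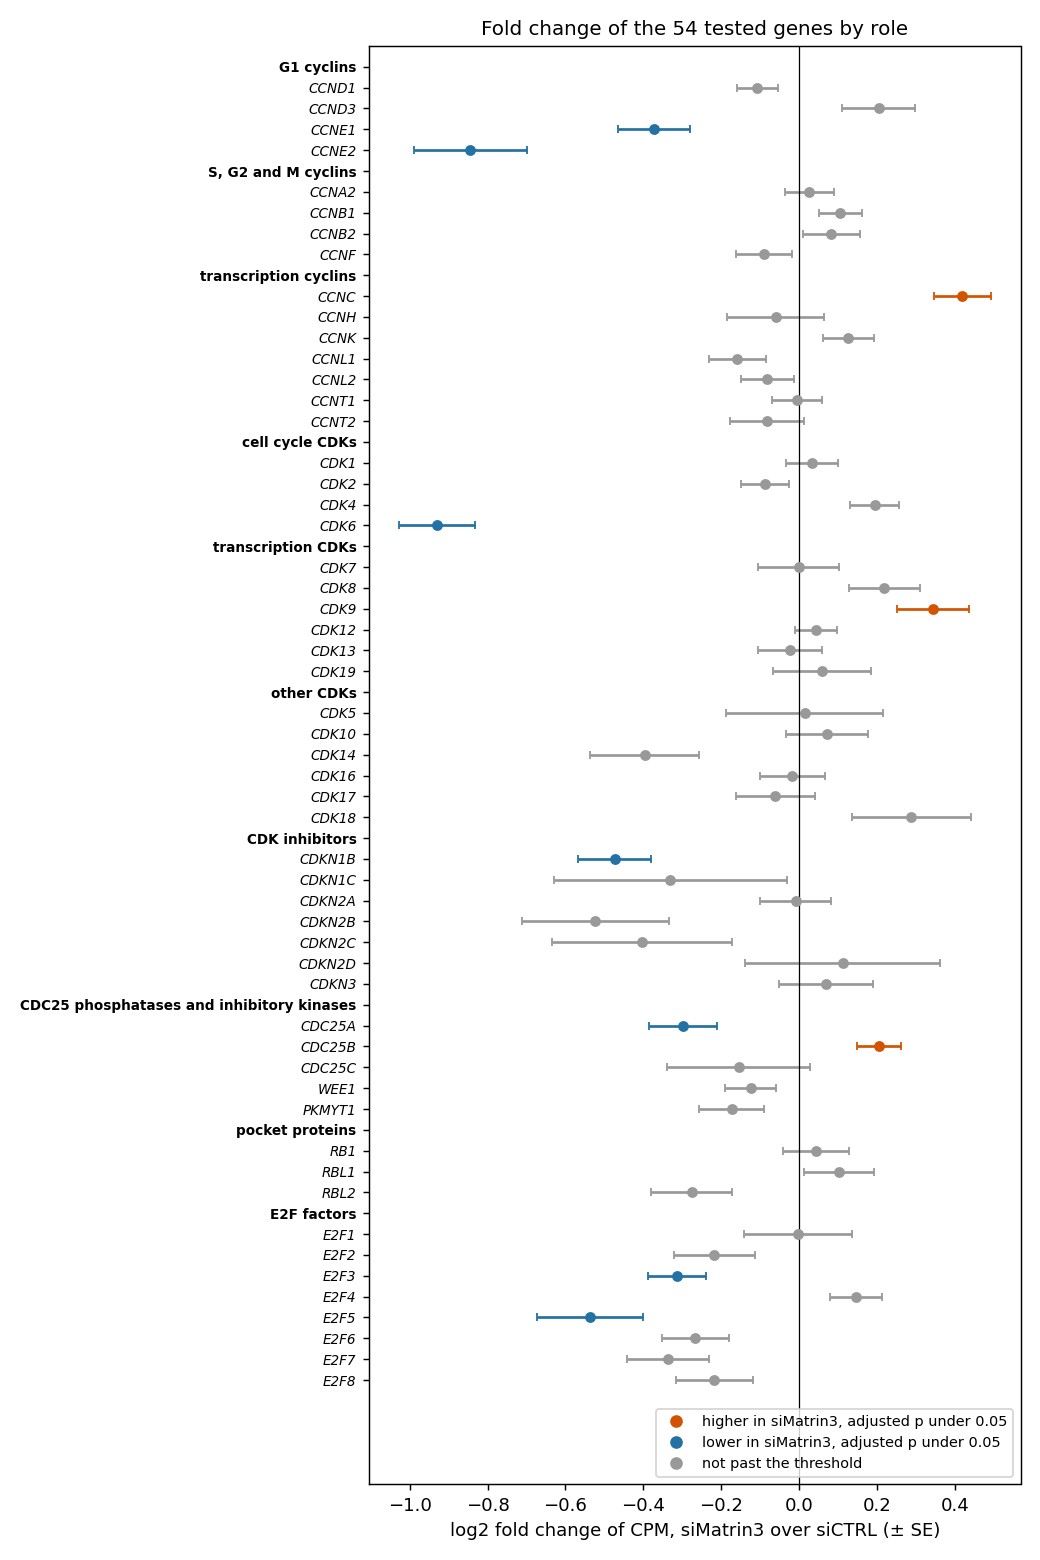
Log2 fold change of CPM, siMatrin3 over siCTRL, with its SE (x axis), for the 54 tested genes grouped by role (y axis); orange points were higher, blue points lower and grey points not past an adjusted p of 0.05 by edgeR. CDK6 lies at -0.93 and CCNE2 at -0.84, and CCNC, the highest, at 0.42.

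Of the G1 cyclins, both E cyclins fell and the D cyclins did not pass. CCNE2 (ENSG00000175305, chr8:94879770-94896678 on hg38, minus strand, 12 exons), an activator of CDK2 at the entry to DNA synthesis, had 13.9, 18.5 and 11.5 CPM in siMatrin3 libraries 1 to 3, against 27.0, 26.1 and 25.2 CPM in siCTRL libraries 1 to 3. The highest siMatrin3 library was well below the lowest siCTRL library. CCNE2 fell by 0.84 ± 0.14 on the log2 scale (SE, edgeR adjusted p = 0.00278), to 56.0% of the siCTRL mean. Its span overlaps INTS8 on the opposite strand, a subunit of the Integrator complex that was also lower in siMatrin3 (log2 fold change -0.26, edgeR adjusted p = 0.0205), and whether reads were counted by strand is not given in the sources used here.

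CCNE1 (ENSG00000105173, chr19:29811991-29824312, plus strand, 12 exons), the other CDK2 activator, has no annotated overlap. It had 38.1, 41.6 and 41.3 CPM in siMatrin3 and 44.7, 55.5 and 54.9 CPM in siCTRL. The groups did not overlap, though siCTRL replicate 1 came near the siMatrin3 libraries. CCNE1 fell by 0.37 ± 0.09 on the log2 scale (edgeR adjusted p = 0.0203), and it did not pass without siMatrin3 replicate 1 or 3 or siCTRL replicate 2 or 3 (adjusted p from 0.0504 to 0.10). Per length, the 2 E cyclins together summed to 31.8, 34.8 and 35.2 TPM in siMatrin3 and 41.8, 52.8 and 56.7 TPM in siCTRL. CCNE2 made up 29.4% ± 0.594 of that sum in siMatrin3 and 36.0% ± 2.06 in siCTRL (SD, n = 3 each), a description with no test.

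CCND1, the D cyclin that carries mitogen signals to CDK4 and CDK6, was the highest of the G1 cyclins. It had 163, 148 and 145 TPM in siMatrin3 and 162, 163 and 161 TPM in siCTRL. Its CPM ranges did not overlap (421 to 440.1 in siMatrin3, 444 to 490.1 in siCTRL), but the log2 fold change of -0.11 did not pass (edgeR adjusted p = 0.224). CCND3 had 30.9, 29.8 and 33.2 CPM in siMatrin3 and 25.9, 28.9 and 26.1 CPM in siCTRL and did not pass either (0.20, edgeR adjusted p = 0.190). CCND2 was at the floor, with 0, 0.05 and 0.05 TPM in siMatrin3 and 0 TPM in all 3 siCTRL libraries, and was not tested. CCND1 made up 89.1% ± 1.08 of the D cyclin TPM in siMatrin3 and 90.8% ± 0.717 in siCTRL.

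Among the 4 cell cycle CDKs, CDK6 fell and CDK1, CDK2 and CDK4 did not pass. CDK6 (ENSG00000105810, chr7:92604921-92836573, minus strand, 8 exons), a partner of the D cyclins, had 74.9, 99.2 and 93.7 CPM in siMatrin3, against 149.8, 172 and 184 CPM in siCTRL. All 3 siMatrin3 libraries lay below all 3 siCTRL libraries, with a wide gap between the groups. CDK6 fell by 0.93 ± 0.10 on the log2 scale (edgeR adjusted p = 9.6e-05), the largest change in the network, to 52.9% of the siCTRL mean. TPM also kept the groups apart, at 10.4, 12.1 and 11.2 in siMatrin3 and 20.1, 19.0 and 18.4 in siCTRL.

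CDK4, the other D cyclin kinase and the highest of these CDKs per length, had 159, 156 and 170 CPM in siMatrin3, against 135, 137 and 152 CPM in siCTRL. The groups did not overlap, but CDK4 did not pass (log2 fold change 0.20 ± 0.06, edgeR adjusted p = 0.0668). It passed when replicate numbers were blocked (edgeR adjusted p = 0.0195) and with DESeq2 (0.0251). On TPM the groups overlapped, at 120, 109 and 118 in siMatrin3 and 105, 106 and 133 in siCTRL. CDK6 made up 7.99%, 9.92% and 8.67% of the summed TPM of CDK4 and CDK6 in siMatrin3, against 16.0%, 15.2% and 12.1% in siCTRL. CDK1, the mitotic kinase, averaged 94.9 ± 4.10 CPM in siMatrin3 and 92.5 ± 4.48 in siCTRL (edgeR adjusted p = 0.810), and CDK2 averaged 89.5 ± 2.48 in siMatrin3 and 94.9 ± 2.02 in siCTRL (edgeR adjusted p = 0.418).

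**Figure D2:**
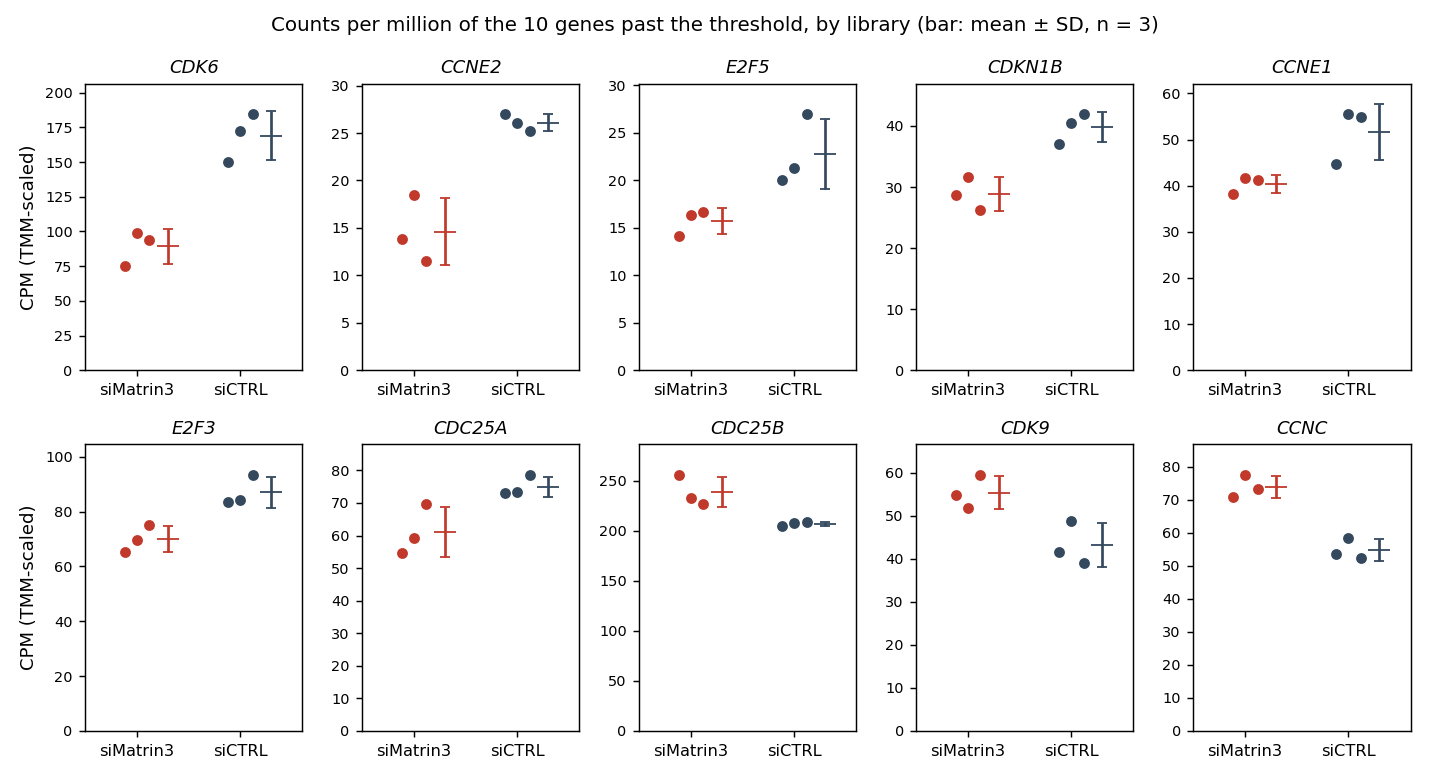
CPM on y axes that start at 0 and differ between genes, for the 10 genes past the threshold, with siMatrin3 left of siCTRL; points are libraries, and the bars beside them the mean ± SD (n = 3). In all 10 genes the 2 groups do not overlap, and CDC25A and CDK9 have the least space between them.

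The cyclins of S, G2 and M did not pass in either direction (0 of 4). CCNB1, the partner of CDK1 in mitosis, was the highest of the 55 genes by mean TPM over the 6 libraries. It had 161, 158 and 146 TPM in siMatrin3 and 164, 172 and 149 TPM in siCTRL, which overlapped. Its CPM ranges did not overlap (189 to 195 in siMatrin3, 169 to 184 in siCTRL). The log2 fold change of 0.11 did not pass (edgeR adjusted p = 0.251). CCNF, an F-box cyclin and the lowest of these 4, had 36.0, 27.7 and 26.4 TPM in siMatrin3 and 33.9, 32.9 and 32.8 TPM in siCTRL. CCNA2, the S phase cyclin, averaged 121 ± 4.81 CPM in siMatrin3 and 119 ± 6.89 in siCTRL, and CCNB2 averaged 58.9 ± 2.17 CPM in siMatrin3 and 55.8 ± 2.94 in siCTRL. Log2 fold changes of the 4 lay between -0.09 and 0.11.

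Of the 7 transcription cyclins, CCNC rose and 6 did not pass. CCNC (ENSG00000112237, chr6:99542387-99568825, minus strand, 12 exons), the cyclin of the Mediator kinase module with CDK8 or CDK19, had 70.9, 77.5 and 73.1 CPM in siMatrin3 and 53.5, 58.5 and 52.5 CPM in siCTRL. Each siMatrin3 library was above every siCTRL library. CCNC rose by 0.42 ± 0.07 on the log2 scale (edgeR adjusted p = 0.00303), to 135% of the siCTRL mean, and TPM gave the same separation. It overlaps TSTD3 on the opposite strand, which had 11.8, 11.7 and 10.9 CPM in siMatrin3 and 15.8, 13.3 and 10.9 CPM in siCTRL and did not pass. CCNL2, a cyclin tied to splicing, had the highest TPM of the 7 (50.9, 48.1 and 42.1 in siMatrin3, 57.8, 54.8 and 52.1 in siCTRL), and CCNT2, a P-TEFb cyclin, the lowest (16.2, 14.6 and 16.6 in siMatrin3, 16.4, 13.6 and 21.2 in siCTRL). CCNH, CCNK, CCNL1, CCNL2, CCNT1 and CCNT2 had log2 fold changes from -0.16 to 0.13.

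Of the 6 transcription CDKs, CDK9 rose and 5 did not pass. CDK9 (ENSG00000136807, chr9:127785679-127790792, plus strand, 7 exons), the kinase of P-TEFb, had 54.9, 51.7 and 59.4 CPM in siMatrin3, against 41.6, 48.8 and 39.1 CPM in siCTRL. The groups were separate in CPM but overlapped in TPM, where the values were 40.9, 42.2 and 47.6 in siMatrin3 and 40.6, 43.3 and 29.4 in siCTRL. CDK9 rose by 0.34 ± 0.09 on the log2 scale (edgeR adjusted p = 0.0307) and did not pass without siMatrin3 replicate 1 or 3 or siCTRL replicate 1 or 3 (adjusted p from 0.0746 to 0.145). CDK8 had a log2 fold change of 0.22 (edgeR adjusted p = 0.149). CDK19, the lowest of this group, had 3.66, 4.68 and 4.39 TPM in siMatrin3 and 4.25, 3.97 and 5.81 TPM in siCTRL. CDK7, CDK12 and CDK13 had log2 fold changes from -0.02 to 0.04.

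The 6 other CDKs (CDK5, CDK10, CDK14, CDK16, CDK17 and CDK18) did not pass. CDK16 was the highest by TPM (41.5, 46.5 and 41.1 in siMatrin3, 58.9, 44.5 and 39.4 in siCTRL) and CDK14, a kinase of the Y cyclins, the lowest (6.52, 4.82 and 4.85 in siMatrin3, 4.03, 7.05 and 7.21 in siCTRL). CDK14 had a log2 fold change of -0.40 (edgeR adjusted p = 0.0897), and its CPM ranges did not overlap, but its TPM ranges did. Its span overlaps CLDN12 on the same strand. CDK10, CDK16, CDK17 and CDK18 had log2 fold changes from -0.06 to 0.29. CDK5, the kinase best known from neurons, averaged 9.54 ± 2.20 CPM in siMatrin3 and 9.38 ± 1.34 in siCTRL.

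Of the 7 CDK inhibitors in the group, CDKN1B fell and 6 did not pass. CDKN1A, the p21 gene, was not among the 55 genes. CDKN1B (ENSG00000111276, chr12:12685498-12722369, plus strand, 3 exons), the p27 protein that binds cyclin E with CDK2, had 28.7, 31.7 and 26.2 CPM in siMatrin3 and 37.1, 40.4 and 41.9 CPM in siCTRL. The groups were clearly apart. CDKN1B fell by 0.47 ± 0.09 on the log2 scale (edgeR adjusted p = 0.00668), to 72.5% of the siCTRL mean. CDKN2A, which encodes p16INK4a and p14ARF, was the highest of these 7 per length, with 42.4, 35.8 and 37.1 TPM in siMatrin3 and 38.0, 41.8 and 45.5 TPM in siCTRL, and the groups overlapped. CDKN2B, the p15 gene next to it, was the lowest, with 2.03, 3.35 and 2.52 TPM in siMatrin3 and 4.11, 3.44 and 3.14 TPM in siCTRL, and its log2 fold change of -0.52 did not pass (edgeR adjusted p = 0.0955). Both overlap CDKN2B-AS1 on the opposite strand. CDKN2B-AS1 had 3.70, 5.40 and 4.37 CPM in siMatrin3 and 7.55, 6.23 and 9.51 CPM in siCTRL, which did not overlap. Its log2 fold change of -0.785 did not pass (edgeR adjusted p = 0.0612). CDKN2C had a log2 fold change of -0.40 (edgeR adjusted p = 0.306), and CDKN1C, CDKN2D and CDKN3 averaged 4.81 ± 2.02, 4.55 ± 0.330 and 23.4 ± 3.47 CPM in siMatrin3, against 5.87 ± 1.15, 4.19 ± 0.293 and 22.1 ± 0.835 CPM in siCTRL.

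Of the 3 CDC25 phosphatases, CDC25A fell, CDC25B rose and CDC25C did not pass. Both calls were lost in 5 of the 6 fits that left out 1 library. CDC25A (ENSG00000164045, chr3:48157146-48188417, minus strand, 15 exons), which activates CDK2 at the start of S phase and whose promoter carries the E2F match shown above, had 54.6, 59.2 and 69.6 CPM in siMatrin3, against 72.9, 73.5 and 78.5 CPM in siCTRL. Its groups were separate by a narrow margin. CDC25A fell by 0.30 ± 0.09 on the log2 scale (edgeR adjusted p = 0.0450) and passed only when siMatrin3 replicate 3 was left out (adjusted p from 0.0813 to 0.178 in the other 5 such fits). CDC25B (ENSG00000101224, chr20:3786772-3806121, plus strand, 16 exons), which starts CDK1 activation before mitosis, had 256, 233 and 227 CPM in siMatrin3 and 205, 208 and 209 CPM in siCTRL.

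CDC25B rose by 0.20 ± 0.06 on the log2 scale (edgeR adjusted p = 0.0353), also passed only without siMatrin3 replicate 3 (0.0529 to 0.158 in the others), and its TPM ranges overlapped, at 88.7, 78.2 and 74.9 in siMatrin3 and 76.6, 78.0 and 79.5 in siCTRL. CDC25C, the lowest of the group, had 5.15, 4.54 and 4.03 TPM in siMatrin3 and 5.07, 5.22 and 6.09 TPM in siCTRL. CDC25B made up 80.2%, 80.0% and 76.1% of the CDC25 TPM in siMatrin3, against 71.0%, 72.8% and 71.6% in siCTRL, so the shares did not overlap. The inhibitory kinases WEE1 (-0.12, edgeR adjusted p = 0.271) and PKMYT1 (-0.17, edgeR adjusted p = 0.212) did not pass.

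The pocket proteins did not pass. RB1, the retinoblastoma protein gene, had 12.2, 14.0 and 13.4 TPM in siMatrin3 and 14.3, 15.3 and 15.3 TPM in siCTRL, which do not overlap, while its CPM ranges did. RBL2, the p130 gene and the lowest of the 3, had 5.27, 7.70 and 9.27 TPM in siMatrin3 and 10.4, 9.01 and 10.3 TPM in siCTRL, with a log2 fold change of CPM of -0.28 (edgeR adjusted p = 0.110). RBL1, the p107 gene, averaged 32.4 ± 1.38 CPM in siMatrin3 and 30.5 ± 2.13 in siCTRL.

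Of the 8 E2F factors, E2F3 and E2F5 fell and 6 did not pass. E2F3 (ENSG00000112242, chr6:20401879-20493714, plus strand, 7 exons), an activator of S phase genes, had 65.4, 69.8 and 75.0 CPM in siMatrin3, against 83.5, 84.2 and 93.3 CPM in siCTRL. The groups did not overlap. E2F3 fell by 0.31 ± 0.08 on the log2 scale (edgeR adjusted p = 0.0177) and did not pass without siMatrin3 replicate 1 or siCTRL replicate 3 (adjusted p = 0.0805 and 0.0941). E2F5 (ENSG00000133740, chr8:85177154-85217158, plus strand, 8 exons), a repressor that works with p130, had 14.1, 16.4 and 16.7 CPM in siMatrin3 and 20.1, 21.3 and 26.9 CPM in siCTRL.

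The E2F5 groups were separate, and siCTRL replicate 3 was the highest. E2F5 fell by 0.54 ± 0.14 on the log2 scale (edgeR adjusted p = 0.0228), and did not pass without siMatrin3 replicate 1 or siCTRL replicate 3 (adjusted p = 0.0914 and 0.116). It overlaps RBIS on the opposite strand, which averaged 37.9 ± 3.87 CPM in siMatrin3 and 36.1 ± 4.11 in siCTRL and did not pass. E2F7, an atypical repressor, had 31.1, 33.8 and 39.0 CPM in siMatrin3, against 41.4, 40.7 and 49.3 CPM in siCTRL, a log2 fold change of -0.34 that did not pass (edgeR adjusted p = 0.0557). When replicate numbers were blocked E2F7 passed (edgeR adjusted p = 0.0116), as it did with DESeq2 (0.0480). E2F6, another repressor, had 27.0, 27.0 and 26.7 CPM in siMatrin3 and 33.2, 32.1 and 31.9 CPM in siCTRL, a separation that did not pass (-0.27, edgeR adjusted p = 0.0633).

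E2F4, the repressor of the DREAM complex, did not pass (log2 fold change 0.15, edgeR adjusted p = 0.186). Its CPM ranges did not overlap (87.05 to 96.85 in siMatrin3, 81.36 to 85.57 in siCTRL). E2F4 was the highest E2F per length at 51.1, 46.3 and 47.0 TPM in siMatrin3 and 47.8, 52.7 and 46.1 TPM in siCTRL, which overlapped. E2F1 was the lowest by the mean of the 6 libraries, at 8.71, 10.9 and 7.32 TPM in siMatrin3 and 8.24, 9.83 and 10.7 TPM in siCTRL. Within siMatrin3, E2F5 and E2F7 averaged lower (7.54 and 8.25 TPM) than E2F1 (8.98 TPM). E2F2 (-0.22) and E2F8 (-0.22) did not pass. In TPM, 18.4% of all tested genes were lower in siMatrin3 with no overlap and 5.48% were higher. The 8 E2F genes together summed to 122, 120.1 and 122 TPM in siMatrin3, against 136, 144 and 147 TPM in siCTRL, and these sums did not overlap. E2F4 took 39.7% ± 1.98 of that sum in siMatrin3 and 34.4% ± 2.67 in siCTRL, while the activators E2F1 to E2F3 took 28.5% ± 2.55 in siMatrin3 and 28.8% ± 2.19 in siCTRL.

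**Figure D3:**
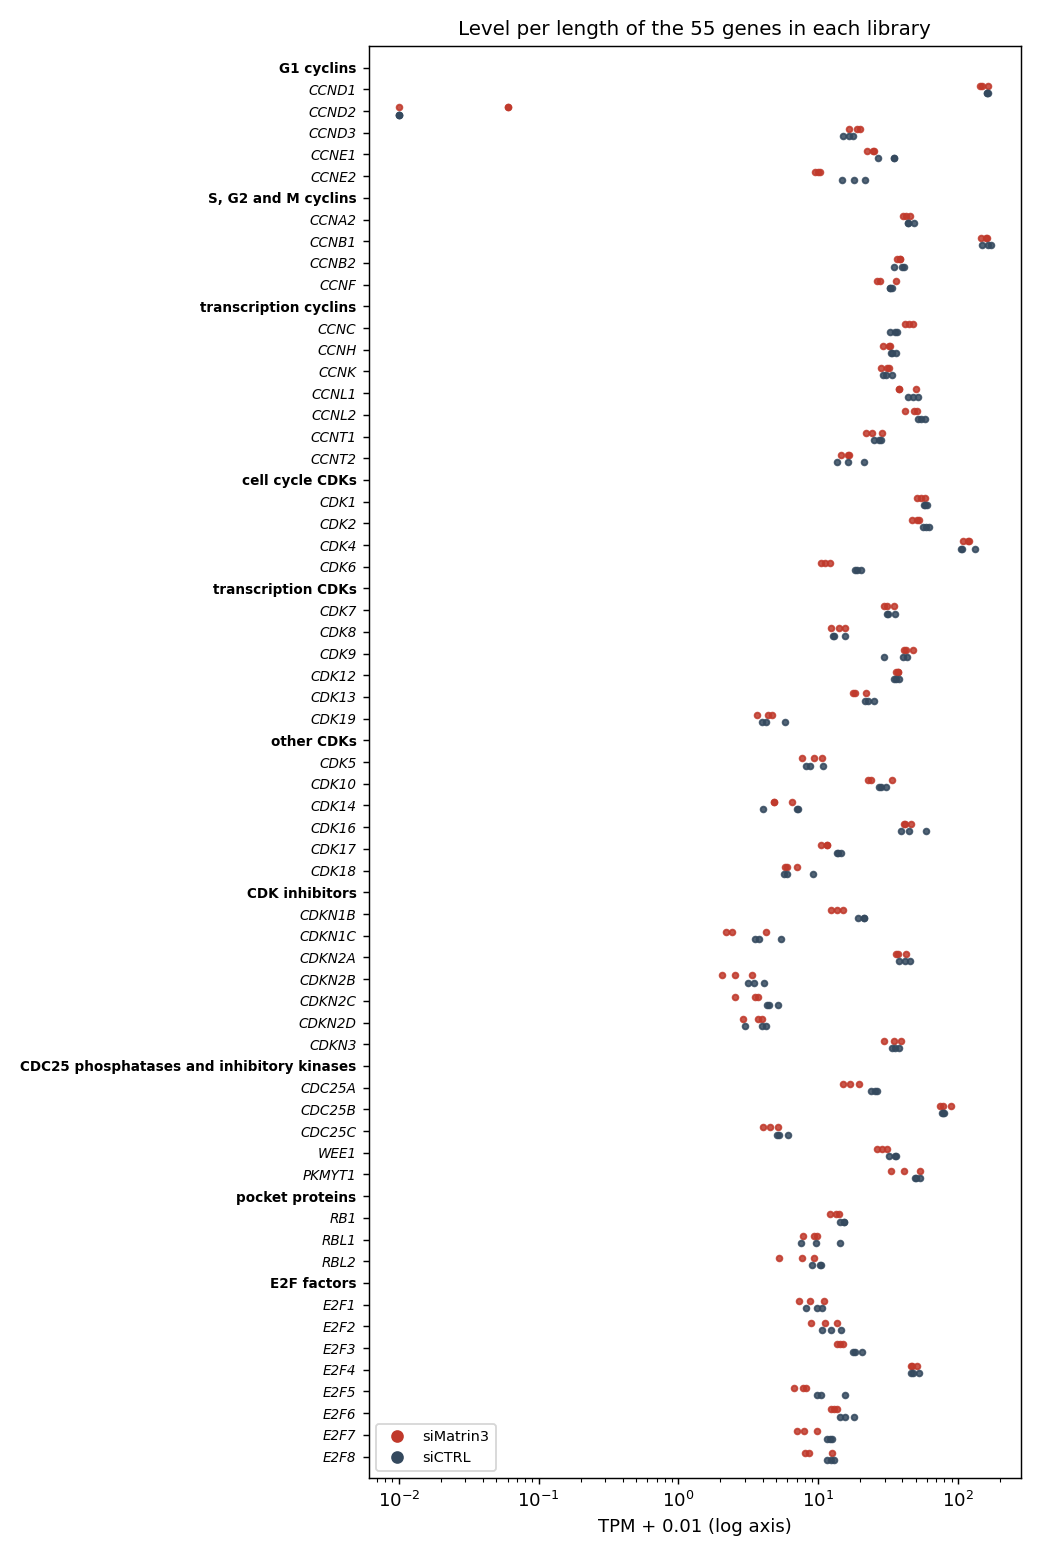
TPM + 0.01 (x axis, log scale) of the 55 genes in each library, grouped by role (y axis), with siMatrin3 points in red above siCTRL points in dark blue. CCNB1, CCND1 and CDK4 are the highest, CCND2 lies at the floor, and CDK6 is the lowest of the cell cycle CDKs in both groups.

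Per length, the order of mean levels over the 6 libraries was led by CCNB1 (158 TPM), CCND1 (157 TPM), CDK4 (115 TPM), CDC25B (79.3 TPM), CDK1 (56.6 TPM) and CDK2 (54.6 TPM). CCNB1 and CCND1 did not differ beyond their spread, nor did CDK1 and CDK2. CDK6, at 15.2 TPM, was far below CDK4 in every library. In TPM, 1 of the 55 genes was higher and 16 were lower in siMatrin3 with no overlap, where 5.48% and 18.4% of all tested genes were. TPM fits moved the median of all tested genes to -0.09 on the log2 scale with a pseudocount of 1, so TPM folds are read against that shift.

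Fewer genes passed once length entered the fit. With length as an offset, the fold changes of CDKN1B, E2F5 and CDC25A were as large as on counts or larger. Those of CDK6, CCNE2, CCNE1 and E2F3 were smaller. When RSEM effective lengths (the abundance-weighted mean isoform length of a gene) entered edgeR as an offset, CDK6 (-0.67, adjusted p = 0.00640) and CCNC (0.47, adjusted p = 0.0459) passed and the other 8 genes did not, where 1.42% of all genes passed. In that fit the log2 fold changes were -0.76 for CCNE2, -0.54 for E2F5, -0.49 for CDKN1B, -0.45 for CDC25A, -0.33 for CCNE1, -0.30 for E2F3, 0.31 for CDK9 and 0.15 for CDC25B. With limma on log2(TPM + 1), CDK6 (-0.72, adjusted p = 0.0308) and CCNE2 (-0.79, adjusted p = 0.0474) passed, against 1.04% of all genes. On that scale, where the median of all tested genes was -0.09, the other lower genes lay between -0.58 for E2F5 and -0.38 for E2F3. CCNC was at 0.35, CDK9 at 0.22 and CDC25B at 0.04. With the replicate block 12 of the 54 passed (15.8% of all genes) and with DESeq2 also 12 (13.3% of all genes tested by it), the same 10 genes plus CDK4 and E2F7 in each. CDK6, CCNE2, CDKN1B and CCNC were past the threshold in all 6 fits that left out 1 library.

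**Figure D4:**
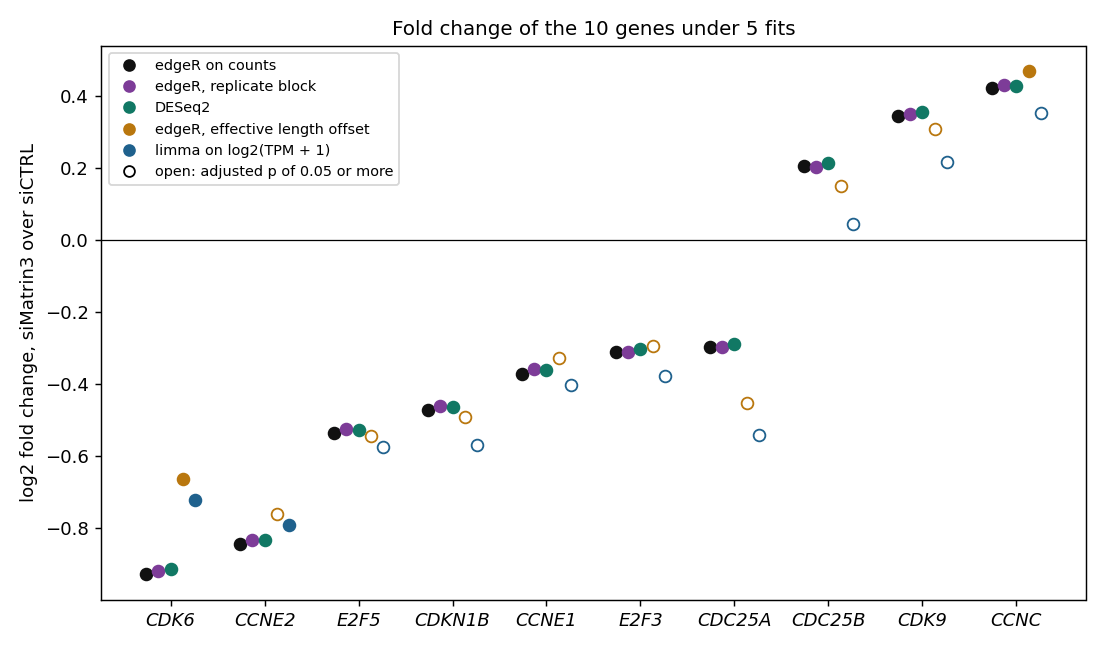
Log2 fold change, siMatrin3 over siCTRL (y axis), of the 10 genes past the threshold on counts (x axis), under edgeR on counts, edgeR with a replicate block, DESeq2, edgeR with an effective length offset, and limma on log2(TPM + 1); filled points have an adjusted p under 0.05. All 10 genes keep their sign in the 5 fits, and CDK6 is filled in all 5.

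The effective length itself gave no call. Of 14334 genes 0 passed (0%) with limma on log2 effective length, while 886 (6.18%) had an unadjusted p under 0.05, among them 2 of the 54 genes, CDC25B and CDK12. CDK6 had 6946, 7783 and 7820 bases in siMatrin3, against 7643, 9148 and 10489 bases in siCTRL. Those ranges overlapped (log2 difference -0.26, limma adjusted p = 0.900), and siCTRL replicate 3 was the longest.

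The 3' untranslated ends were also searched for the 7-base words GAAGACT or AAGACTA and ATTACAA or TTACAAA, which earlier work on these libraries picked after the data were seen, so their counts support nothing. GAAGACT or AAGACTA was in 9 of the 54 genes (16.7%) against 18.4% of 12136 tested genes with a 3' end. It was in 2 of the 7 lower genes (28.6%), CDK6 and E2F3, against 39.9% of all 682 lower genes with a 3' end. The median 3' end was 2599 bases in those 682 genes and 1344 bases over all tested genes. ATTACAA or TTACAAA was in 15 of the 54 (27.8%) against 25.7%. CDK6 holds 2 stretches, at bases 5078 and 8428 of a 3' end of 10219 bases, and E2F3 holds 1, at base 660 of 3284. They are shown because CDK6 had the largest change, with the match in capitals.
CDK6 first: aatctgatGAAGACTAaagaggta
CDK6 second: ggtttcagGAAGACTgtcacata
E2F3: cagatacaGAAGACTAgtagagtt

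The genes around the network were read from lists of the same pathways. Over all 14334 tested genes, 814 (5.68%) rose and 743 (5.18%) fell in the main fit. With the replicate block 1203 rose and 1056 fell, 15.8% in either direction. In the main fit 3603 of the 14334 had an unadjusted p under 0.05. Of 25 S phase genes that E2F factors drive, 6 were higher and 3 lower (median 0.04), and with the replicate block 8 were higher, MCM4 and TK1 added, and 3 lower. Among them the replication helicase subunits MCM5 (0.36), MCM3 (0.28) and MCM6 (0.24) rose, and RRM2, the small subunit of ribonucleotide reductase, fell by 0.38 on the log2 scale. RRM2 had 320, 313 and 313 CPM in siMatrin3, against 409, 408 and 412 CPM in siCTRL. Of 19 G2 and M genes, BIRC5, an inhibitor of apoptosis in the chromosomal passenger complex, rose (0.25) and CENPE, a kinetochore motor, fell by 0.50, and 17 did not pass (median 0.10); with the replicate block 3 of the 19 rose and 1 fell. CENPE passed in 1 of the 6 fits that left out 1 library, the fit without siMatrin3 replicate 2, and not with DESeq2 (adjusted p = 0.0957), the offset (0.0709) or TPM (0.108). Of 21 genes that turn over cyclins and inhibitors, the anaphase-promoting complex subunit CDC27 rose (0.41) and ANAPC11 (-0.42) and CDC23 (-0.24) fell (median -0.03), and with the replicate block SKP1 also fell. CDC23 passed in 0 of the 6 fits that left out 1 library, and not with DESeq2 (adjusted p = 0.0979), the offset (0.109) or TPM (0.0824). MCM6 did not pass without siMatrin3 replicate 1 or siCTRL replicate 3 (adjusted p = 0.0637 and 0.0698), BIRC5 without siMatrin3 replicate 2 or siCTRL replicate 3 (0.0527 and 0.0755), and ANAPC11 without siCTRL replicate 3 (0.0626). MCM3, MCM6, RRM2, BIRC5 and CDC27 did not pass with the offset (edgeR adjusted p = 0.138, 0.162, 0.116, 0.225 and 0.0525). None of them passed with limma on log2(TPM + 1) either (adjusted p from 0.06045 to 0.489). MCM5 passed with the offset (adjusted p = 0.0214) but not on TPM (0.0676). ANAPC11 passed on TPM (adjusted p = 0.0430) but not with the offset (0.116). TPM ranges of MCM3, MCM6 and BIRC5 overlapped between the groups. None of 9 DREAM, MuvB and E2F partner genes passed by edgeR (median 0.07), with 1 at an unadjusted p under 0.05. None of the 15 tested of 16 CDK partner genes passed (median 0.03), with 4 at an unadjusted p under 0.05. With the replicate block, 1 of the 15 rose and 1 fell.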

How the data were processed

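RNA of HCT116 biological triplicates was prepared by ribosomal RNA depletion with a directional kit and single-end reads, per the study's methods; the labels instead name a stranded mRNA kit. Per the labels, the authors used cutadapt, TopHat and RSEM on hg19. The authors deposited expected counts (not normalized between libraries), TPM and effective length (bases) per gene. Annotation release and strand setting: not given in the sources used here.

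Gene positions are from GENCODE release 44 on hg38, matched by ID (99.3% of 58884). Expected counts were rounded, filtered by filterByExpr (minimum count 10, minimum total 15), scaled by TMM and tested with edgeR 4.0.16 (R 4.3.3), siMatrin3 against siCTRL, two-sided, with Benjamini-Hochberg adjustment at 0.05. Effective lengths and TPM were tested with limma 3.58.1, and DESeq2 1.42.0 was an alternative. The script was tested on simulated data. Biological coefficient of variation was 6.44%. Libraries of a group differed by more than sampling noise (chi-square over its degrees of freedom 2.62 to 4.36). Same-numbered libraries deviated together weakly (r = 0.107, 0.104 and 0.157 across genes). Other pairs had r from -0.0842 to -0.0238, but centring each group on its mean pushes these below 0 once same-numbered pairs are positive. Whether libraries were paired by experiment is not given in the sources used here. The main fit had no replicate term, and the replicate number entered only as a block in an alternative fit. Exact permutation of 3 against 3 libraries gives no p under 0.1. Named genes are every member past the threshold or not tested, the highest and lowest by TPM in each role group, and up to 4 genes per pathway list; CDK4, CDK8, E2F2, E2F6 to E2F8, CDKN2C, WEE1, PKMYT1 and other genes short of the threshold were named after their values were seen. Members and lists were chosen with earlier results of these data known.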

Additional observations from a re-analysis of the deposited data

How the results depend on the processing

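MATR3 kept its fall under every alternative (log2 fold change -2.32 to -2.25 when 1 library was left out). The higher genes numbered 3 on counts, 1 with effective lengths as an offset, 0 in each of the TPM fits (pseudocount 1, pseudocount 0.1, and all genes with a TPM above 0), and 1 to 2 when 1 library was left out. The lower genes numbered 7 on counts, 1 with the offset, 2 with either pseudocount on TPM, 0 with all genes above a TPM of 0, and 3 to 7 when 1 library was left out: 3 without siMatrin3 replicate 1 or siCTRL replicate 3. With the offset, log2 fold changes of 3 lower genes that lost their calls were as large or larger. CDKN1B was at -0.47 on counts and -0.49 with the offset, E2F5 at -0.54 in both, and CDC25A at -0.30 and -0.45. CCNE2, CCNE1 and E2F3, which also lost their calls, were smaller than on counts, at -0.76, -0.33 and -0.30 with the offset. With a TPM pseudocount of 1, CDKN1B was at -0.57, E2F5 at -0.58 and CDC25A at -0.54, where the median of all tested genes was -0.09. The cause of the lost calls was not tested. With a pseudocount of 0.1 the median of all tested genes moved to -0.10 on TPM. RLE and upper quartile scaling, the count filters, leaving out genes over 1% of the counts and DESeq2 kept all 10 genes. The replicate block gave 4 higher and 8 lower, adding CDK4 and E2F7, and changed no other call among the 54 genes. Calls of effective length were 0 in all of its alternatives, also when 1 library was left out. None of the 10 genes changed sign under any alternative, but 23 of the 44 that did not pass did in at least 1. Of those given with a fold change or at the end of a range, CCND1 was at 0.008 and CDK18 at -0.011 with the offset. With TPM pseudocounts of 1 and 0.1 and with all genes above a TPM of 0, CCNB1 was at -0.054, -0.055 and -0.054, CCNK at -0.032, -0.033 and -0.032, CDK18 at -0.108, -0.119 and -0.108, and E2F4 at -0.021 in each. CDK13 ranged from -0.077 to 0.062 when 1 library was left out, above 0 without siMatrin3 replicate 2 (0.011) or siCTRL replicate 1. Genes under 10 CPM, such as CDKN2B, CDKN2C and CDKN1C, had wide errors (SE 0.19, 0.23 and 0.30 on the log2 scale).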
